A study of Mus musculus with 4 samples.

Results

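Selective autophagy receptors are proteins that recognise cargo and tie it to the forming autophagosome. The RNA of 10 of them was compared here between aortic smooth muscle cells with and without floxed Atg7 alleles. The 10 genes were Sqstm1 (the gene of p62), Nbr1, Optn, Calcoco1, Tax1bp1, Tollip, Bnip3, Bnip3l, Fundc1 and Ncoa4. Their probes were all array probes that are not controls and carry one of these gene names, which gave 20 of 41174 probes and 10 of 28307 genes. Cultured primary aortic smooth muscle cells of mice (strain given as C57LB/6, passages 4 to 10, medium with 10% serum) had the genotype Atg7F/F SM22α-Cre+ or Atg7+/+ SM22α-Cre+. Both genotypes carried Cre driven by the smooth muscle promoter SM22α, so they differed in the floxed Atg7 alleles. RNA of 2 biological replicates per genotype was hybridised in pairs of 1 Atg7F/F and 1 Atg7+/+ extract, on 2-colour Agilent arrays of 60-base probes. Each pair was hybridised again with the dyes swapped, which made 4 arrays. The 2 arrays of a pair were averaged, so that n = 2 except in alternative fits that kept the 4 arrays apart. The labels do not say whether a replicate is 1 animal or a pool. The limma p-values and intervals combine the spread between these 2 pairs with a spread estimated over all genes. The latter supplied 2.18 of the 3.18 degrees of freedom.

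Autophagosome growth needs ATG7, an enzyme that works like a ubiquitin E1 and prepares ATG8 proteins for their attachment to lipid. Autophagy receptors bind lipidated ATG8 proteins through a short LIR motif and bind their cargo through another domain, and p62 is itself degraded with its cargo. p62 protein therefore accumulates where autophagy is blocked, which an RNA array does not measure. p62 also binds KEAP1, the adaptor that targets the transcription factor NRF2 for degradation, and Sqstm1 is itself an NRF2 target gene.

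The probes that carry the results are shown as their last 30 bases, 5′ to 3′ in the sense of the mRNA, or whole where the coordinates in the files span more bases than the probe has. Positions are those of the array design on mouse build mm9. The Sqstm1 probe lies at chr11:50013670-50013729 on the minus strand, and its capitals mark a match to AATAAA, the letters of the polyadenylation signal, which does not by itself place the probe in the transcript.
Sqstm1, last 30 bases: tggtttgtaagtaacctgtAATAAAatgcc
Bnip3, last 30 bases: aaggcctctaactttgtgaactgagtagca
Bnip3l probe 1, last 30 bases: agtttgaatttgagaccctattgtaagcat
Bnip3l probe 2, last 30 bases: tgcaatactcagaaaattctttgaatggca
Tollip probe 1, last 30 bases: atgacagaagtgttgtgcgactgggctctg
Tollip probe 3, 60 bases: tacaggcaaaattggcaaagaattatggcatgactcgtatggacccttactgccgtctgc
Tax1bp1 probe 1, 60 bases: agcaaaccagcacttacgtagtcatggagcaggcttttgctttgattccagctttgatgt
Tax1bp1 probe 2, 60 bases: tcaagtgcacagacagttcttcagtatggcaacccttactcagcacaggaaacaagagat
Optn, 60 bases: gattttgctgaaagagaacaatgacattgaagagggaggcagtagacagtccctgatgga
The Bnip3 probe lies at chr7:146083077-146083136 and Bnip3l probe 2 at chr14:67605388-67605447, both on the minus strand. For Bnip3l probe 1 the files give only 12 bases, chr14:67604077-67604088 on the minus strand, for a 60-base probe. Tollip probe 1 lies at chr7:149067713-149067772 on the minus strand. The probes printed whole span more than 60 bases of the genome, which applied to 4 of the 20: Tollip probe 3 (chr7:149078017-149078649, minus), Tax1bp1 probe 1 (chr6:52715047-52715875, plus), Tax1bp1 probe 2 (chr6:52707665-52708208, plus) and Optn (chr2:4945178-4948201, minus). Exons and untranslated regions are not stated, since no annotation of this build was used here. No probe pair from different receptor genes shared a run of over 10 bases, and Bnip3 and Bnip3l probes shared at most 6.

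Between 43.3% and 45.5% of spots on an array were well above background and none of the non-control spots was saturated. Of the 20 receptor probes, 17 stood well above background for Atg7F/F and Atg7+/+ RNA alike on every array, and 3 did so on none. There were 5 receptors with 1 probe and 5 with several. The brightest probe past the filter stood for each gene. This left 9 receptors among 12367 genes, all but Calcoco1. In bulk RNA, fewer cells of a type and less RNA per cell cannot be told apart.

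The Atg7 probe had log2 ratios, Atg7F/F over Atg7+/+, of -1.26 and -1.09 on the arrays of replicate 1 and -0.96 and -1.57 on those of replicate 2. Its mean was -1.22 ± 0.07 (SD, n = 2). The size depended on the processing: the software's processed signals gave -1.98 and -1.69 in replicate 1 and -2.90 and -2.82 in replicate 2, and an offset of 0 gave -1.74 and -1.53 in replicate 1 and -1.17 and -2.46 in replicate 2. Its extracts read 7.06 and 6.94 log2 signal units in Atg7F/F cells, against 8.23 and 8.20 in Atg7+/+ cells, with no overlap. The labels do not say which exon is deleted, and this probe may lie outside the deleted stretch. Smooth muscle markers were bright in both genotypes, with a mean signal of 14.12 and 13.61 in Atg7F/F cells, against 14.12 and 13.87 in Atg7+/+ cells. Of these markers 6 of 6 passed the filter, which asks for a probe well above background in only 1 genotype. Of the 7 endothelial markers all passed the filter and 6 were lower on all 4 arrays, against 9.95% of all genes, with a mean signal of 7.91 and 8.04 in Atg7F/F cells, against 8.10 and 8.60 in Atg7+/+ cells. Macrophage markers passed for 4 of 6, with Ptprc and Adgre1 not well above background, and fibroblast markers for 5 of 5. On all 4 arrays 2 of 6 smooth muscle, 2 of 4 macrophage and 2 of 5 fibroblast markers were also lower, and 1 macrophage marker was higher. The part of these markers in the receptor results was not tested.

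No receptor RNA passed the test. Of 12367 genes, 0% were called higher and 0% lower at an adjusted p below 0.05, and all 9 receptors had an adjusted p of 1.00 (limma, Benjamini-Hochberg over all genes). Without adjustment 1.34% of all genes were higher and 1.64% lower at p below 0.05, and 0 receptors were. The smallest p that 2 pairs allow in an exact two-sided sign test is 0.5. Sqstm1, Nbr1 and Bnip3l were higher in Atg7F/F cells on all 4 arrays, against 10.6% of all genes. Tollip was lower on all 4, against 9.95% of all genes. With median centring in place of loess, 0 receptors were higher and 0 lower on all 4 arrays, against 4.86% and 2.14% of all genes. Both replicate ratios were above 0 in 3 of the 9 receptors, against 23.4% of all genes, and below 0 in 2, against 22.1%. The median of the receptor ratios was 0.09, against 0.00 for all genes tested. It was 0.13 without replicate 1 and -0.02 without replicate 2, so its sign rested on replicate 2.

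**Figure D1:**
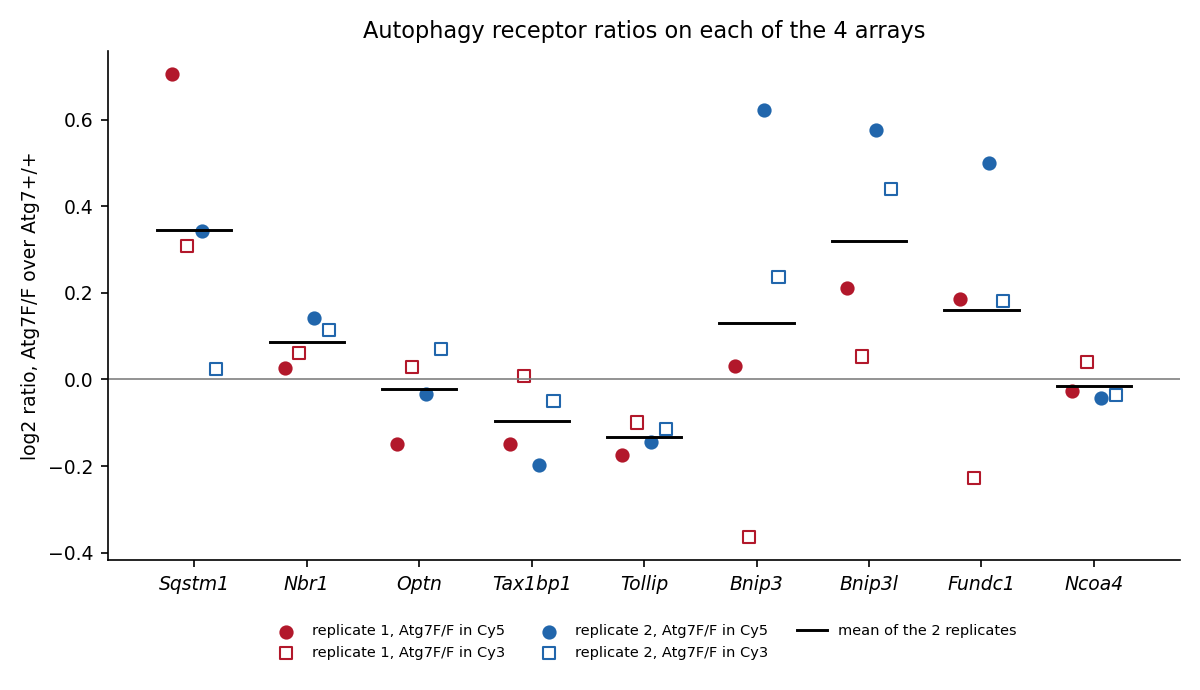
Log2 ratio of Atg7F/F over Atg7+/+ for 9 autophagy receptors on each of 4 arrays; red marks replicate 1 and blue replicate 2, filled circles Atg7F/F in Cy5 and open squares Atg7F/F in Cy3, and black lines the mean of the 2 replicates. Sqstm1, Nbr1 and Bnip3l lie above 0 on all 4 arrays, Tollip below, and Bnip3 spreads between -0.36 and 0.62.

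Sqstm1 encodes p62, which binds ubiquitin and lipidated ATG8 and assembles into filaments through its PB1 domain. In Cy5 it read 75347 and 69263 intensity units in Atg7F/F cells, against 48709 and 59722 in Atg7+/+ cells. In Cy3 it read 37704 and 39993 in Atg7F/F cells, against 28047 and 35530 in Atg7+/+ cells. Atg7F/F cells were brighter than Atg7+/+ cells in each dye. After loess and scaling between channels, the extracts read 15.68 and 15.68 log2 units in Atg7F/F cells, against 15.17 and 15.50 in Atg7+/+ cells, so the groups did not overlap. That pattern, higher without overlap, was met by 11.4% of all genes. The log2 ratio was 0.71 and 0.31 on the arrays of replicate 1 and 0.34 and 0.02 on those of replicate 2. The mean was 0.35 ± 0.23 (SD, n = 2), a 1.27-fold higher level, with a 95% interval of -0.04 to 0.73. The difference from 0 did not pass the test (limma, unadjusted p = 0.064). In each replicate the ratio was larger with Atg7F/F in Cy5. On average an array lay 0.18 log2 units to either side of its replicate's mean by dye orientation, a larger shift than in 92.6% of genes. Averaging the dye swap cancels such a shift, and the resulting replicate values were 0.51 and 0.18. Without background subtraction 1 of the 4 array ratios was below 0, at -0.04.

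The 3 genes nearest to Sqstm1 over its 4 array ratios (Euclidean distance, 4 arrays) were Gclc, Lpl and Ncam1. Gclc encodes the catalytic subunit of glutamate-cysteine ligase, an enzyme of glutathione synthesis. It was at a distance of 0.11 with ratios of 0.69, 0.40, 0.39 and 0.06 and a mean of 0.38. Lpl, a triglyceride lipase, was at 0.15 with ratios of 0.72, 0.26, 0.45 and -0.07 and a mean of 0.34. Ncam1, a neural cell adhesion molecule, was at 0.16 with ratios of 0.63, 0.41, 0.28 and 0.10 and a mean of 0.35. These are likenesses over 4 arrays that come from only 2 pairs of extracts. The dye-swapped arrays were not averaged for this distance, so it also matches genes on their dye shift.

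**Figure D2:**
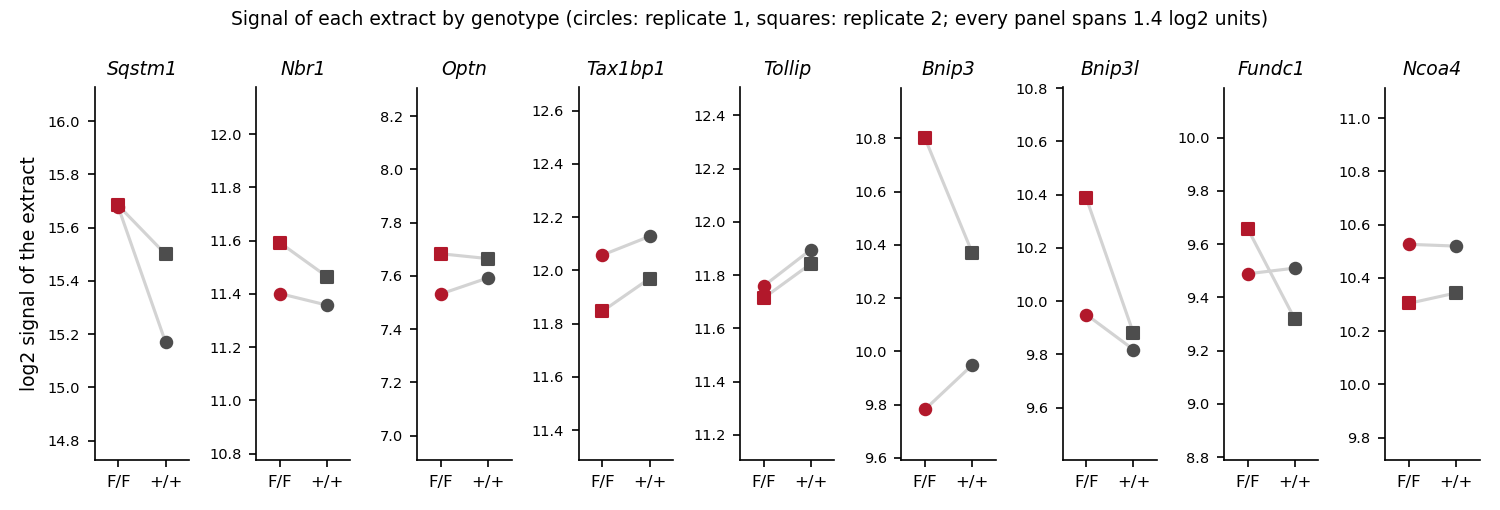
Log2 signal of each of 2 extracts per genotype, after loess and scaling between channels, in Atg7F/F (red, left) and Atg7+/+ (grey, right); circles mark replicate 1, squares replicate 2, and grey lines join extracts of one pair. Sqstm1 and Bnip3l are higher and Tollip lower without overlap, against 11.4% and 10.1% of all genes, and the other 6 genes overlap.

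Nbr1, Optn and Tax1bp1 also encode receptors for ubiquitin-marked cargo. Nbr1, which shares a PB1 domain with p62, was higher on all 4 arrays by a small amount with its brightest probe only. Its ratios of 0.03 and 0.06 (replicate 1) and 0.14 and 0.11 (replicate 2) had a mean of 0.09 ± 0.06 (SD, n = 2) and a 95% interval of -0.18 to 0.36. The extracts read 11.40 and 11.59 log2 units in Atg7F/F cells, against 11.36 and 11.46 in Atg7+/+ cells, and overlapped. Its 2 other, dimmer probes averaged 0.13 and 0.01, and each had both signs among the arrays, with lowest ratios of -0.08 and -0.05. The dimmest read 81.9 to 132 intensity units in Atg7F/F cells, against 85.8 to 122 in Atg7+/+ cells, with a local background between 45 and 87. Optn encodes optineurin, a ubiquitin-binding receptor phosphorylated by TBK1. Its ratios of -0.15, 0.03, -0.03 and 0.07 averaged -0.02 ± 0.06 (SD, n = 2). The extracts read 7.53 and 7.68 in Atg7F/F cells, against 7.59 and 7.66 in Atg7+/+ cells. Tax1bp1 encodes a receptor with ubiquitin-binding zinc fingers. Probe 1 gave -0.15, 0.01, -0.20 and -0.05 with a mean of -0.10 ± 0.04 (SD, n = 2), and the extracts read 12.06 and 11.85 in Atg7F/F cells, against 12.13 and 11.97 in Atg7+/+ cells. Probe 2 was lower on all 4 arrays with a mean of -0.06. Probe 3 averaged 0.03 and was dim, with 73.4 to 125 intensity units in Atg7F/F cells, against 74.0 to 115 in Atg7+/+ cells. The fourth was not well above background.

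Calcoco1, a receptor for parts of the endoplasmic reticulum and Golgi, was not well above background in either genotype on any array. Its probe read 56.2 to 88.0 intensity units in Atg7F/F cells, against 55.2 to 85.4 in Atg7+/+ cells, with a local background between 43 and 85. It entered no test.

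Tollip encodes a CUE-domain protein that binds ubiquitin and ATG8 and clears protein aggregates. Probe 1 was lower in Atg7F/F cells on all 4 arrays, with ratios of -0.17 and -0.10 in replicate 1 and -0.14 and -0.11 in replicate 2. Its extracts read 11.76 and 11.71 log2 units in Atg7F/F cells, against 11.90 and 11.84 in Atg7+/+ cells, without overlap, as did 10.1% of all genes in the lower direction. The mean was -0.13 ± 0.01 (SD, n = 2), with a 95% interval of -0.39 to 0.13. The dimmer probes 2 and 3 averaged 0.01 and 0.04, so the lower value was seen with 1 of 3 probes. Probe 2 read 136 to 218 intensity units in Atg7F/F cells, against 138 to 222 in Atg7+/+ cells. Probe 3 read 93.4 to 130 in Atg7F/F cells, against 87.9 to 129 in Atg7+/+ cells. The part of brightness in this disagreement was not tested. Ratios of its 3 probes spanned 0.17, against a median span of 0.08 over 3806 genes with several probes.

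**Figure D3:**
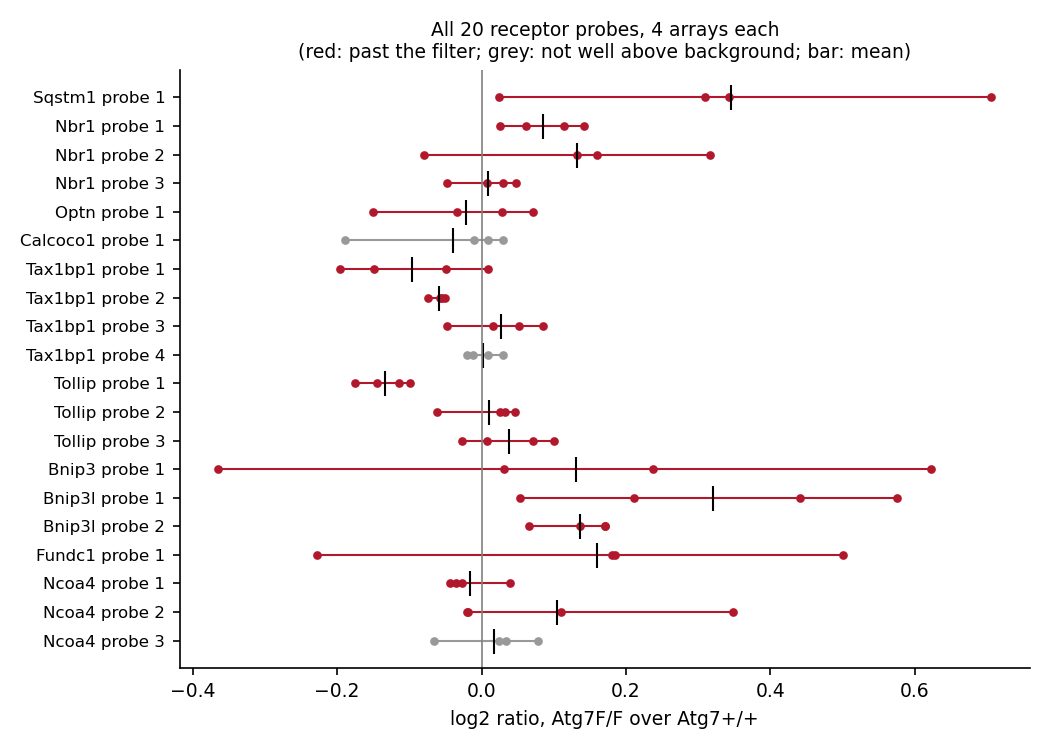
Log2 ratio of Atg7F/F over Atg7+/+ for all 20 receptor probes; each row holds 4 dots (arrays), a line over their range and a black bar at their mean, in red for the 17 probes past the filter and grey for the other 3. Both Bnip3l probes lie above 0 on all 4 arrays, and only the first of 3 Tollip probes lies below 0 on all 4.

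The mitochondrial receptors Bnip3, Bnip3l (NIX) and Fundc1 lie in the outer membrane and bind ATG8 proteins directly, and Bnip3 and Bnip3l are known to be induced in hypoxia. With the brightest probe of each gene, all 3 had higher ratios in replicate 2 than in replicate 1. Bnip3l probe 1 read in Cy5 1273 and 1422 intensity units in Atg7F/F cells, against 1087 and 1044 in Atg7+/+ cells, and in Cy3 812 and 1031 in Atg7F/F cells, against 775 and 779 in Atg7+/+ cells. Its extracts read 9.95 and 10.39 log2 units in Atg7F/F cells, against 9.82 and 9.88 in Atg7+/+ cells. They did not overlap, as in 11.4% of all genes in the higher direction. The ratios of probe 1, 0.21, 0.05, 0.58 and 0.44, averaged 0.32 ± 0.27 (SD, n = 2), 1.25-fold, with a 95% interval of -0.10 to 0.74. The test against 0 gave an unadjusted p of 0.094 (limma). Probe 2 was also higher on all 4 arrays, with 0.17, 0.14, 0.17 and 0.07 and a mean of 0.14 ± 0.02 (SD, n = 2), but its ratio was not higher in replicate 2 (0.12) than in replicate 1 (0.15). The Bnip3l probes thus had the same sign, but their means differed by 0.18, against a median span of 0.08 over 3806 genes with several probes.

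Bnip3 changed sign between replicates, and so did many other genes. Both replicate ratios were above 0 in only 23.4% of all genes and below 0 in 22.1%. Over all genes the ratios of the 2 replicates correlated at -0.10. In Cy5 Bnip3 read 1170 and 1955 intensity units in Atg7F/F cells, against 1266 and 1608 in Atg7+/+ cells. It gave log2 ratios of 0.03 and -0.36 in replicate 1 and 0.62 and 0.24 in replicate 2, averaging 0.13 ± 0.42 (SD, n = 2), with a 95% interval of -0.45 to 0.71. The replicates differed by 0.60, more than in 91.1% of genes. Its extracts read 9.78 and 10.80 log2 units in Atg7F/F cells, against 9.95 and 10.37 in Atg7+/+ cells. Fundc1 was near 0 in replicate 1, at -0.02 from arrays of 0.18 and -0.23. In replicate 2 it was higher, at 0.34 from arrays of 0.50 and 0.18. Its replicates differed by 0.36, more than in 78.4% of genes. Its mean was 0.16 ± 0.26 (SD, n = 2), and its extracts read 9.49 and 9.66 in Atg7F/F cells, against 9.51 and 9.32 in Atg7+/+ cells. Both also gave higher ratios with Atg7F/F in Cy5. Their arrays lay on average 0.19 (Bnip3) and 0.18 (Fundc1) log2 units to either side of the replicate mean by dye, more than in 94.6% and 93.2% of genes. Over 11 measured hypoxia-induced genes of a list of 12, 0 were higher and 0 lower on all 4 arrays, against 10.6% and 9.95% of all genes, and the median ratio was -0.01 in replicate 1 and 0.18 in replicate 2. Over all genes the median ratio was 0.0002 in replicate 1 and 0.005 in replicate 2. Of these 11 genes, 7 had a higher and 4 a lower ratio in replicate 2 than in replicate 1. The matching share of all genes was not counted, so this split is no result about the list. Any part of hypoxia was not tested.

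**Figure D4:**
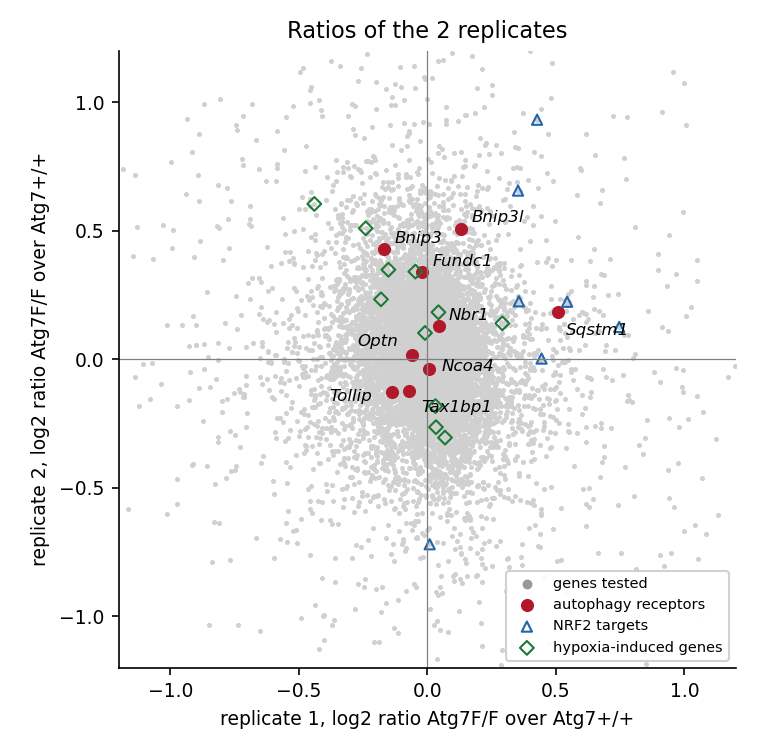
Ratio of replicate 1 (horizontal) against replicate 2 (vertical), log2 Atg7F/F over Atg7+/+, for all genes inside 1.2 units of 0 (grey; 168 genes lie outside), 9 receptors (red), NRF2 targets (blue triangles; 2 lie outside) and hypoxia-induced genes (green diamonds). Bnip3 lies in the upper left, with -0.17 and 0.43, and Sqstm1 to the right, with 0.51 and 0.18.

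Ncoa4 encodes the receptor that delivers ferritin to lysosomes. Its bright probe gave -0.03, 0.04, -0.04 and -0.04, averaging -0.02 ± 0.03 (SD, n = 2), with extracts at 10.53 and 10.30 log2 units in Atg7F/F cells, against 10.52 and 10.34 in Atg7+/+ cells. A second, dim probe averaged 0.10, with ratios of -0.02, -0.02, 0.11 and 0.35. This probe read 84.5 to 127 intensity units in Atg7F/F cells, against 74.4 to 127 in Atg7+/+ cells. The third was not well above background. The ferritin chains Fth1 and Ftl1, named because they are its cargo, averaged 0.17 and 0.10, and neither had one sign on all 4 arrays.

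The surrounding genes were counted by list. Of 21 measured partners and regulators of the receptors, of 22 listed, 0 passed the test. On all 4 arrays 5 were higher and 2 lower, against 10.6% and 9.95% of all genes, and the median was -0.01. Among those with one sign on all 4 arrays, the 3 largest were Ulk1, the kinase that starts autophagosome formation, at 0.32 ± 0.18, Tbk1, the kinase of optineurin, at 0.21 ± 0.26, and Nfe2l2, the gene of NRF2, at 0.20 ± 0.15 (SD, n = 2). Of 17 measured other receptors, of 18 listed, 0 passed the test, 0 were higher on all 4 arrays and 5 lower, with a median of -0.07. The 3 largest of those 5 were Stbd1, a glycogen-binding receptor, at -0.32, Nipsnap1, a mitochondrial matrix protein, at -0.24, and Retreg1, a receptor for the endoplasmic reticulum, at -0.19.

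Of 9 measured NRF2 targets, of 10 listed, 0 passed the test and 7 were higher on all 4 arrays, against 10.6% of all genes, with a median of 0.44. This list was chosen with earlier results of these data known, so its direction is no independent evidence. Nqo1, a quinone reductase, averaged 1.46, Srxn1, a sulfiredoxin, 1.03, and Gsr, glutathione reductase, 0.68. Hmox1, haem oxygenase, was chosen after its values were seen and differed in sign, at -0.36 ± 0.52 (SD, n = 2).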

How the data were processed

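RNA of primary aortic smooth muscle cells was measured on 4 two-colour Agilent arrays. The scanner files deposited by the authors hold mean intensity and median background intensity per channel, not normalized. Per the submitters' processing notes the software was Agilent Feature Extraction, version 10.1.1.1. The deposited files also give a log10 Cy5 to Cy3 ratio of software-processed signals. The authors' deposited value table holds log2 ratios of Atg7F/F over Atg7+/+ on every array. They equalled the processed-signal ratios turned to that direction within 0.001 for 100% of probes. Its columns had medians of 0.20, -0.09, 0.08 and -0.04.

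Background was corrected with limma 3.58.1 (R 4.3.3; normexp, offset 50, which pulls dim ratios towards 0) and arrays were normalized by loess. All ratios are Atg7F/F over Atg7+/+, with dye-swapped arrays averaged. Probes with a non-uniform spot (36) were left out, as were those not well above background in at least 1 genotype on all 4 arrays. limma's lmFit and eBayes tested 12367 genes against 0, with Benjamini-Hochberg adjustment. The replicate number is the pair of extracts on an array, so the pairing comes from the hybridisation scheme; same-numbered deviations correlated at 0.18. All arrays lay on 1 slide and were scanned on 1 day. Alternatives covered background, normalization, filter, probe choice, variance model and left-out replicates. Every receptor and probe, Atg7, the 3 largest genes of one sign in each list and the 3 nearest to Sqstm1 are named. The receptors and lists were chosen with earlier results of these data known.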

Additional observations from a re-analysis of the deposited data

How the results depend on the processing

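Of 14 alternatives, 12 gave a test, and none of the 9 receptors passed the threshold in any of them. The 2 that leave out a replicate give a value with no test. The software's processed signals and the deposited log2 ratios were the same values and are in effect 1 alternative. The lowest adjusted p by limma was 0.35, for Bnip3l with 4 arrays as independent. That setting counts each dye swap as a replicate. With the extract pair as a random block, the limma adjusted p of Bnip3l was 0.72. Sqstm1 ranged between 0.18 and 0.51, both ends being single replicates, and Bnip3 between -0.17 without replicate 2 and 0.43 without replicate 1. Fundc1 likewise gave -0.02 without replicate 2 and 0.34 without replicate 1. Optn gave -0.06 and 0.02 and Ncoa4 0.0066 and -0.04 in the same order. With median centring in place of loess, Optn turned to 0.0052 and Ncoa4 to 0.051, and Ncoa4 was 0.044 as the mean over its probes. Under median centring 0 receptors were higher and 0 lower on all 4 arrays (Sqstm1 gave 1.21, -0.16, 1.33 and -0.40), all genes shifted by 0.04, and the receptor median was 0.17. Without background subtraction Sqstm1 was not above 0 on all 4 arrays (0.76, 0.27, 0.48 and -0.04). With all probes averaged 2 receptors were higher and 2 lower on all 4 arrays, against 10.9% and 10.2% of all genes. With the brightest probe the counts were 3 and 1, against 10.6% and 9.95% of all genes. Over all genes, 0 were called higher and 0 lower; the counts were 7 and 2 with the extract pair as a random block, 17 and 8 with 4 arrays as independent, and 1 higher with no replicate block. The causes were not tested, and 2 pairs limit all of these.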
